A study of Mus musculus with 3 samples.

Results

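Cells chosen for S phase transcripts and for few or no transcripts of 9 G2/M genes were described here. They came from organoids grown from the mouse submandibular salivary gland, profiled by droplet single-cell RNA sequencing. Members were chosen by their own counts of 15 cell cycle genes. A cell was taken when it had at least 500 detected genes, at most 20% of its unique molecular identifiers (UMIs, which count captured RNA molecules) from mitochondrial genes, at least 3 UMIs summed over the 6 S phase genes Mcm5, Rrm2, Pclaf, Hist1h1b, Hist1h2ae and Pcna, and fewer than 2 UMIs summed over the 9 G2/M genes Top2a, Mki67, Cdk1, Ube2c, Cenpf, Prc1, Ccnb1, Ccna2 and Birc5. Of 42216 cells that passed the first 2 limits, 463 were members: 46 in the control library, 266 in the photon library and 151 in the proton library. The glands came from C57BL/6 mice 8-12 weeks old, 4 animals contributed, and the cells are not tied to an animal. All organoids grew in Matrigel, in a medium of EGF, FGF2, insulin, N2, dexamethasone, Y27632 and media conditioned with R-spondin1 and with Wnt3a. One set received no radiation, one received 7 Gy of photons and one 7 Gy of protons (plateau) on day 5, and all 3 were dissociated on day 11, sorted for cells that exclude propidium iodide and run on the same day. There was 1 library per condition. No spread between samples exists, so no difference was checked against replicates and no test was run; intervals are exact 95% intervals that cover counting error only.

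In S phase a cell copies its genome. Helicase complexes loaded in G1 are fired at replication origins, DNA polymerases travel on the sliding clamp PCNA, ribonucleotide reductase supplies deoxynucleotides, and histones are made to package the new DNA. Transcription of many of these genes is driven by E2F factors at the G1/S transition. The genes used here to leave cells out are named for G2 and mitosis, but their absence from S phase was not tested. Cells left out for these transcripts can therefore not be taken to be past S phase. Members were 29.1%, 19.7% and 21.2% of the cells past the S phase threshold in the control, photon and proton libraries. Interferon-stimulated genes are switched on after interferon signalling through the interferon-stimulated response element (ISRE), and they matter here because they set apart the irradiated libraries.

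The promoter windows below show both kinds of element in genes chosen as examples because they had a match. The capitals mark matches to TTTCCCGC, TTTCGCGC, TTTGGCGC or TTTGCCGC on either strand for the replication genes Mcm5 and Dtl, and to GAAA, any 2 bases and GAAA again on either strand for the interferon genes Isg15, Ifit3 and Bst2; overlapping matches are joined. The sequences are from RefSeq on build GRCm38.p6 and read 5′ to 3′ on the gene's strand. The lines give chr8:75109314-75109383 (plus strand) for Mcm5, chr1:191575542-191575611 (minus) for Dtl, chr4:156200867-156200936 (minus) for Isg15, chr19:34583333-34583402 (plus) for Ifit3 and chr8:71537573-71537642 (minus) for Bst2. The first base of the match lies 153, 8, 78, 156 and 130 bases before the annotated start, in that order.
Mcm5: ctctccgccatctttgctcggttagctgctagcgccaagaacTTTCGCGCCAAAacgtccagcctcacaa
Dtl: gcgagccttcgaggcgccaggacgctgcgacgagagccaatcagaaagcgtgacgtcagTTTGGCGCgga
Isg15: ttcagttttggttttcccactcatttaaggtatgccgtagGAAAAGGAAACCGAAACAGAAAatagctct
Ifit3: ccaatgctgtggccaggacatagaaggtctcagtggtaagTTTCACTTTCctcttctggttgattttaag
Bst2: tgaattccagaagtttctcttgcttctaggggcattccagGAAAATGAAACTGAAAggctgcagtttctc
In windows from 250 bases before to 50 after the start, the E2F-type letters were found in 704 of 27025 genes (2.605%). Of the rule's S phase genes 2 of 4 matched genes had them, and Pcna and Rrm2 did not. By list, the letters were found in 7 of 15 matched genes of origin licensing and helicase loading, 6 of 19 fork genes and 5 of 15 replication chromatin genes. They were found in 9 of 31 genes of replication stress and repair, but in 0 of 13 nucleotide synthesis genes. The counts were 1 of 8 for the rule's G2/M genes, 0 of 43 for other G2/M genes and 0 of 26 for p53 targets. The ISRE-type letters were found in 1079 of 27025 windows (3.99%), in 20 of 39 interferon response genes and in 5 of 17 genes of MHC class I presentation. A match is a description of the letters and not a measured binding site.

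Members held 260880 UMIs in the control, 1191843 in the photon and 605152 in the proton library. Their median depth was 4533, 4241 and 3782 UMIs per cell, against 2735, 2571 and 2087 in cells under both thresholds, called other cells below. Gene levels are given as CPM, the UMIs of a gene per 1000000 UMIs summed over the members of a library, so 3 UMIs are worth 11.5, 2.52 and 4.96 CPM. No barcode was a member in more than 1 library, although 55 to 61 deposited barcodes recurred between pairs of libraries. Malat1, a nuclear RNA, stood at 26652, 13477 and 8213 CPM in the members of the 3 libraries, and ribosomal protein genes took 20.4%, 21.9% and 26.3% of their UMIs; the part of these differences in the results below was not tested. Markers of fibroblasts, immune cells, endothelium, pericytes, red cells and nerve summed to 0 to 3 UMIs per library in all members together, with Ptprc, the leukocyte antigen CD45, at 0 in each.

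S phase members were most frequent after photons and least frequent without radiation. They made up 0.348% of kept control cells (95% interval 0.255 to 0.464, exact Clopper-Pearson), 1.77% of photon cells (1.56 to 1.99) and 1.08% of proton cells (0.917 to 1.27). The share was thus 5.08 times as high in the photon library and 3.11 times as high in the proton library as in the control, and the proton share was 0.612 of the photon share. With each cell thinned to 2000 UMIs, and 3599, 4150 and 6017 shallower cells left out, 22 of 9620, 234 of 10891 and 118 of 7939 cells met the rule, or 0.229%, 2.15% and 1.49%. The order photon, proton, control was the same in all 8 other versions of the rule or the cell filter, but the sizes were not: the photon and proton shares were 2.34 and 1.54 times the control share with at least 2 S phase UMIs, 10.8 and 5.82 times with at least 5, 9.40 and 6.50 times after thinning, and 14.3 and 7.77 times with Pcna left out. With no G2/M UMI allowed the proton share was 1.92 times the control share. It was not the same at every depth: among cells with at least 4000 and under 8000 UMIs the shares were 0.787%, 4.19% and 2.96%, whereas among the few cells with 8000 or more UMIs they were 4.78% (10 of 209 cells), 3.95% (9 of 228) and 1.85% (3 of 162), with intervals that overlap. Cells with at least 2 G2/M UMIs, whatever their S phase UMIs, numbered 233 (1.76%), 2100 (14.0%) and 1435 (10.3%), so they too were most frequent after photons. Among the cells past the S phase threshold, 29.1% (46 of 158), 19.7% (266 of 1348) and 21.2% (151 of 712) were members, the rest having G2/M transcripts as well; after thinning these shares were 31.9%, 28.5% and 33.5%, in another order.

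**Figure D1:**
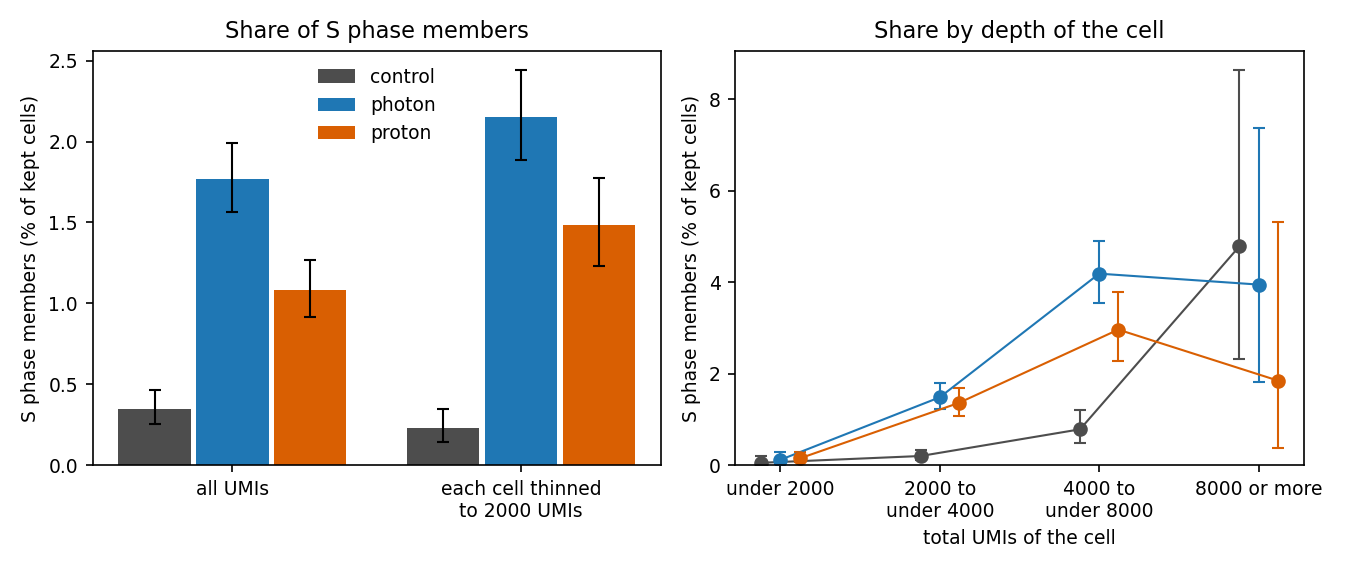
Share of S phase members among kept cells, in percent, for the 3 libraries; bars and points are shares and error bars exact 95% counting intervals. On the left, all UMIs and cells thinned to 2000 UMIs both put photon highest and control lowest; on the right, the share by total UMIs of the cell, where the control is lowest between 2000 and 8000 UMIs and the intervals of the 3 libraries overlap from 8000 UMIs on.

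The control members met the rule in a different way from the irradiated ones. They held 163 UMIs of the 6 S phase genes in all, against 1187 and 633, with a median of 3, 4 and 4 per cell, and 76.1%, 44.7% and 48.3% of members had exactly 3. Pcna, the sliding clamp, which is also used in DNA repair, supplied 58.3% of these UMIs in the control and 24.5% and 29.2% in the photon and proton libraries. Pcna was the only S phase gene seen in 14 control members (30.4%), 10 photon members (3.76%) and 7 proton members (4.64%). Pclaf, the PCNA-associated factor, was detected in 15.2%, 63.5% and 58.9% of members, and Rrm2, the small subunit of ribonucleotide reductase, in 28.3%, 55.3% and 38.4%. Mcm5, a subunit of the replicative helicase, was detected in 21.7%, 36.8% and 41.1%, and the linker histone gene Hist1h1b in 32.6%, 32.0% and 40.4%. The core histone gene Hist1h2ae was detected in 0 of 46 control members (upper 95% bound 7.71%) and in 9.40% and 12.6% of photon and proton members. These genes chose the cells, so their values describe the rule and support nothing. At least 3 of the 6 genes were seen together in 26.1%, 53% and 54.3% of members.

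Genes of replication that the rule did not use were read to check the name. Over 59 such genes, a member held a median of 4, 8 and 7 UMIs per 2000 in the control, photon and proton libraries, and other cells held 2 in each. At least 3 such UMIs were found in 61.4% of control members (45.5 to 75.6), 90.4% of photon members (86.2 to 93.7) and 89.4% of proton members (83.2 to 94.0), against 31.8%, 35.4% and 29.1% of other cells. Members with Pcna as their only S phase gene held medians of 3, 2.5 and 3, from only 13, 10 and 7 cells. At least 3 such UMIs were found in 53.8% (25.1 to 80.8), 50% (18.7 to 81.3) and 71.4% (29.0 to 96.3) of them. These intervals hold the shares in other cells, so no difference from other cells can be read. Members past the threshold without Pcna held medians of 7, 9 and 7. Most photon and proton members thus carried replication transcripts outside the rule, and fewer of the 46 control members did. Cells with at least 2 G2/M UMIs held medians of 5, 5 and 4, and 72.8%, 79.9% and 74.9% of them had at least 3. These transcripts were therefore not particular to the members, and in the control they were more frequent in the G2/M cells. Left without Pcna, the rule keeps 10 control members.

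**Figure D2:**
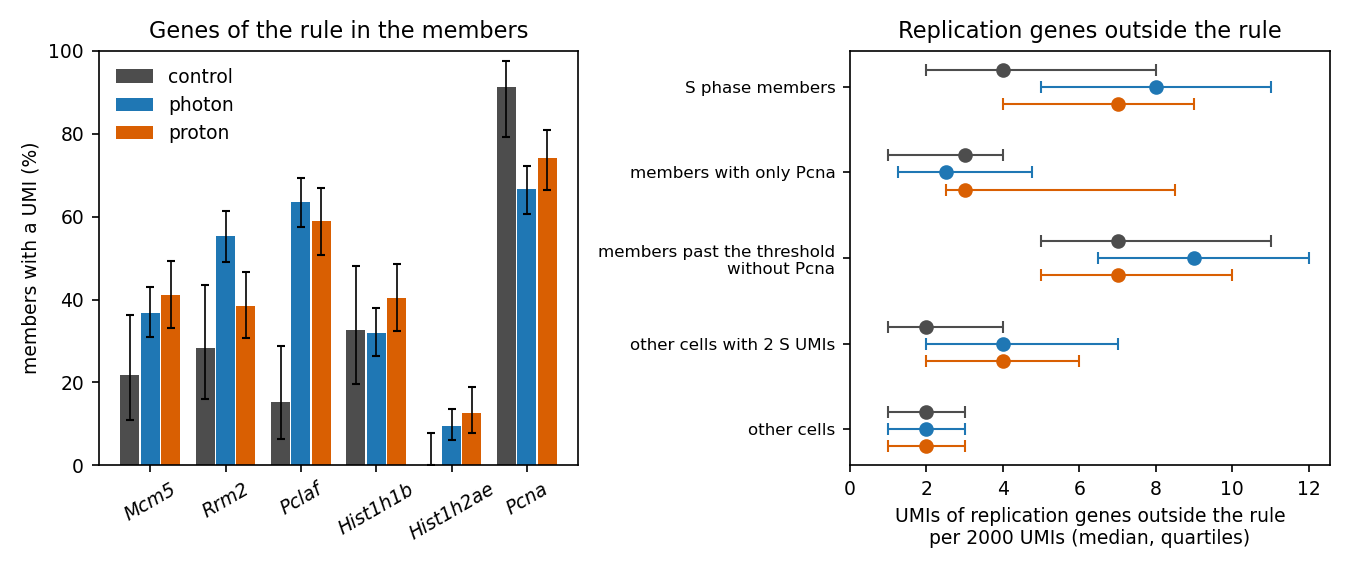
Left, percent of members with a UMI of each S phase gene of the rule, by library, with exact 95% counting intervals; Pcna leads in the control and Pclaf and Rrm2 are more frequent in the photon members. Right, UMIs of 59 replication genes outside the rule per 2000 UMIs of a cell (points are medians, lines the quartiles), where members lie at 4, 8 and 7 and other cells at 2.

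Cells on either side of the thresholds formed a gradient. With fewer than 2 G2/M UMIs throughout, the licensing genes summed to 449.6, 781 and 614 CPM in the 209, 413 and 263 cells with 2 S phase UMIs, just outside the rule. They summed to 682, 1119.9 and 853 CPM in the 35, 119 and 73 members with exactly 3, and to 1657, 1698 and 1095 CPM in the 7, 86 and 43 members with 5 or more. At the other limit, 11, 128 and 80 members carried 1 G2/M UMI, and 7, 99 and 64 cells with at least 3 S phase UMIs were left out because they carried exactly 2; in those the licensing genes summed to 1769, 1611 and 1240.0 CPM. The members are thus a range of cells set by thresholds, with cells just outside that share their transcripts in part.

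Members and other cells of the same library differed by rule, and the following levels describe what else was in the members. Of 5733 genes tested, 203 (3.54%) were at least 1.5-fold higher in members in all 3 libraries and 360 (6.28%) lower; taken singly, 9.73%, 7.01% and 9.7% were higher and 18.7%, 21.2% and 23.1% lower in the control, photon and proton libraries. Of the 203 genes 5 belong to the rule. Clspn, the claspin adaptor of the replication checkpoint, had levels of 30.7, 84.7 and 39.7 CPM in members of the control, photon and proton libraries, against 1.74, 4.43 and 2.97 CPM in other cells. Tk1, thymidine kinase, stood at 53.7, 107 and 116 CPM against 5.19, 12.2 and 9.07. Dtl, the substrate receptor through which PCNA-bound Cdt1 is degraded in S phase, stood at 76.7, 127 and 144 CPM against 5.11, 14.0 and 20.7. These 3 genes had among the highest ratios of members to other cells in each library. Gmnn, the licensing inhibitor geminin, stood at 111, 221 and 79.3 CPM against 15.4, 31.5 and 11.3, and the helicase subunit gene Mcm3 at 57.5, 117 and 69.4 CPM against 6.50, 17.6 and 9.97. Uhrf1, Prim1, Hells and Chaf1a, which maintain DNA methylation, prime DNA synthesis, remodel chromatin and deposit histones, were also among the 10 genes that ranked highest by their smallest ratio over the 3 libraries. At the other end, Ppargc1a, a coactivator of mitochondrial genes, stood at 46.0, 26.0 and 18.2 CPM in members and 132, 196 and 147 CPM in other cells, with Adcy8, Plppr4, Fhit, Il34, Dach1, Abca1, Srgap1, Arrdc3 and Kcnh1 also lowest relative to them. All of these but Plppr4, Il34 and Arrdc3 are longer than 100 kb, and the part of gene length was not tested. Members were deeper than other cells, and with only cells of 4000 to 12000 UMIs 160 genes were lower.

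By role, the sums over whole lists were higher in members than in other cells in every library for licensing (3.28-, 4.18- and 3.90-fold in control, photon and proton), fork polymerases and factors (2.33-, 3.46- and 3.36-fold), nucleotide synthesis (2.31-, 2.79- and 2.96-fold) and replication chromatin (1.83-, 2.63- and 2.82-fold). Cholesterol synthesis genes, which were not part of the rule and are not replication genes, were higher too, at 2.35-, 2.13- and 2.12-fold, with 10, 11 and 12 of 14 tested past 1.5-fold. Other lists stood lower: the p53 targets summed to 0.844, 0.658 and 0.611 of the level in other cells, with 5, 10 and 9 of 18 genes lower and 1, 0 and 0 higher. The median log2 ratio of the p53 targets was -0.32, -0.68 and -0.61, beside -0.09, -0.16 and -0.19 over all genes. The basal duct keratin Krt14 stood at 2529.9, 3294 and 1497 CPM in members and 1505, 1811 and 728 CPM in other cells. Acinar markers summed to 34.5, 49.5 and 33.0 CPM in members, basal duct markers to 8049.7, 9065 and 5430.0 CPM and luminal duct markers to 4749, 5401 and 3107 CPM.

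Members were next set against the G2/M cells of the same library, which include the 112, 1082 and 561 cells past both thresholds. Here 7 of 5630 genes (0.124%) were at least 1.5-fold higher in members in all 3 libraries, and 76 (1.35%) were lower. Pcna is among the 7, and the 76 include 11 genes of the rule, all 9 of its G2/M genes among them, so that 6 and 65 other genes remain. Ung, the uracil-DNA glycosylase that clears uracil from new DNA, stood at 53.7, 52.9 and 19.8 CPM in members and 21.1, 14.3 and 8.99 CPM in G2/M cells. Chaf1a, the large subunit of chromatin assembly factor 1, stood at 57.5, 57.1 and 54.5 CPM against 36.7, 32.7 and 26.8, and the helicase gene Mcm4 at 153, 206 and 131 CPM against 103, 113 and 64.3. Cdca7, Cd3eap, Tnks1bp1, Fxyd2, Acaa1a, Trmt6 and Mcm2 completed the 10 highest. The 10 lowest were mitotic genes outside the rule: Aspm, Hmmr, Nusap1, Cenpe, Dlgap5, Cdc20, Cenpa, Kif23, Cdkn3 and Racgap1. The kinetochore motor gene Cenpe stood at 7.67, 15.9 and 11.6 CPM in members against 161, 131 and 129.5 CPM in G2/M cells. The other G2/M genes together summed to 1365, 2450.0 and 2036 CPM in members, which was 0.189, 0.371 and 0.401 of the level in G2/M cells and 1.78, 2.39 and 2.67 times that in other cells. The members held less of this list than G2/M cells and more than other cells. Members and G2/M cells were parted by the rule's 9 G2/M genes. The first of these differences and the 10 lowest genes therefore describe the rule and support nothing. Of the 10 lowest genes named above, Hmmr, Nusap1, Cdc20, Cdkn3 and Racgap1 had 0 UMIs in control members. Cenpa still stood at 29.4 and 23.1 CPM in photon and proton members.

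The replication-dependent histone genes behaved unlike the other replication lists. Their mRNAs end in a stem-loop without a poly(A) tail, and the capture used here starts from poly(A). Their sum over members was 107, 113 and 236 CPM, against 107, 90.5 and 88.0 CPM in other cells, so that the control members were level with them. In G2/M cells the sum was higher, the members holding 0.221, 0.203 and 0.533 of it. Histone genes of this family share sequence, and the counting can split their reads. Splitting members by whether they carried Hist1h1b or Hist1h2ae gave 15, 99 and 66 positive and 31, 167 and 85 negative cells. In that split 17 of 5537 genes (0.307%) were higher and 13 (0.235%) lower in all 3 libraries, most of them at a handful of UMIs in the control; Srbd1, Bysl and Usp53 led the first and Prkce, Uqcc3 and Kidins220 the second.

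**Figure D3:**
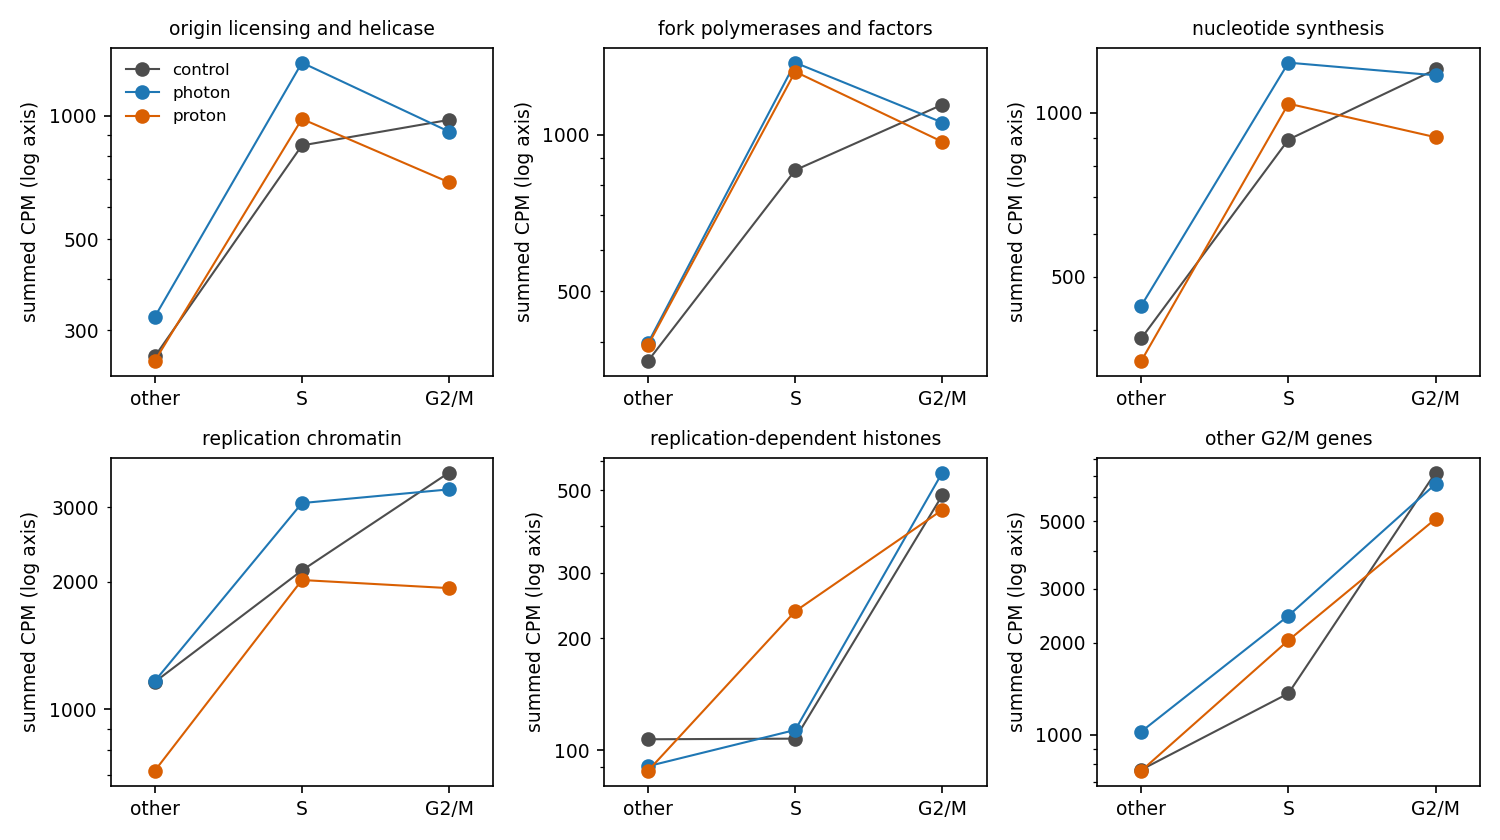
Summed CPM (log axis, range set per panel) of 6 gene lists in other cells, S phase members and G2/M cells, 1 line per library, joined only to guide the eye; no error is drawn. Licensing and fork genes are above other cells in the members of all 3 libraries, and peak there in the photon and proton libraries, while other G2/M genes are highest in G2/M cells.

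The condition comparisons within members use the same summed counts. A gene is called higher or lower past 1.5-fold where its mean level over both libraries is at least 25 CPM, and photon and proton comparisons share the control library. For photon against control, 600 of 5474 genes (11%) were higher in members and 1160 (21.2%) lower; with median-ratio scaling in place of CPM the split was 766 higher and 890 lower. For proton against control, 1019 of 5626 genes (18.1%) were higher and 1393 (24.8%) lower, or 1224 and 1115 with median-ratio scaling. That scaling shifts all log2 ratios by 0.11 and 0.10, since the median over all genes was -0.10 in both comparisons. In other cells, which are far more numerous, 4.2% were higher and 5.13% lower for photons (9.33% either way). For protons 11.9% were higher and 15.2% lower (27.1%). In members 32.2% and 42.9% passed either way. Members hold far fewer UMIs, so counting error is larger there and these shares cannot be read as a larger response. At a mean of at least 100 CPM, 8.62% were higher and 13.2% lower in members for photons, and 13.6% and 22.8% for protons. Single genes at low counts in the control members have wide intervals. By gene length (under 10 kb, 10 to 100 kb, 100 kb or more) the median log2 ratio in members was 0.09, -0.11 and -0.39 for photons. For protons it was -0.24, -0.17 and 0.23. Other cells had the same orders. Of genes of 100 kb or more, 4.05% were higher and 34.4% lower for photons, and 27.4% and 8.82% for protons. The part of gene length was not tested.

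Interferon response genes were higher in the members of both irradiated libraries. The 50 listed genes summed to 6244 CPM in control members, 19787 CPM in photon members and 19322 CPM in proton members, ratios to the control of 3.17 (3.01 to 3.33) and 3.09 (2.94 to 3.26). For photons, 34 of 36 tested genes were higher and 1 was lower; their median log2 ratio was 2.74, beside -0.10 over all genes. For protons, 28 of 33 were higher and 1 was lower, and the median was 2.63. The sums of both irradiated libraries were high and close to each other, with a proton to photon ratio of 0.977 (0.955 to 0.998). Ifi27l2a was a large part of them, at 3887 CPM in photon and 6126 CPM in proton members. Ifit3 had the opposite order, at 314 and 154 CPM. More tested genes of the list were lower than higher in proton than in photon members, as counted below. In other cells the same list had ratios of 3.72 and 3.66, so the members shared the difference with the rest of the organoids. Cell by cell, at 2000 UMIs each, a member held a median of 12 interferon UMIs in the control (quartiles 8 to 16), 39 in the photon library (31 to 48) and 38 in the proton library (30 to 46.75), where other cells held 10, 40 and 40. The lower quartile of both irradiated libraries thus lay above the upper quartile of control members.

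**Figure D4:**
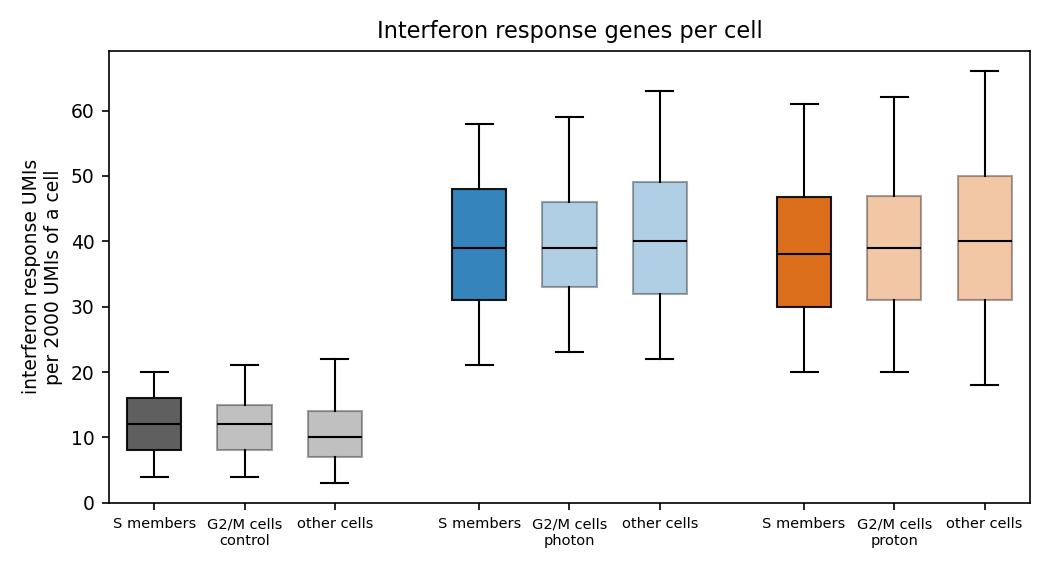
Interferon response UMIs per 2000 UMIs of a cell, for members, G2/M cells and other cells of each library; boxes span the quartiles, lines inside are medians and whiskers reach the 5th and 95th percentiles of cells, which are not replicates. Members lie at medians of 12, 39 and 38, close to the G2/M and other cells of their own library.

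Single interferon genes followed this with differing sizes. Isg15, a ubiquitin-like modifier, stood at 88.2 CPM in control members, 1358 in photon members and 580.0 in proton members, from 23, 1618 and 351 UMIs. It was 15.4-fold higher after photons (10.2 to 24.4) and 6.58-fold higher after protons (4.31 to 10.5); 7 of the 23 control UMIs came from 1 member, without which the ratios were 20.9 and 8.69. Ifi27l2a, an interferon-induced mitochondrial protein gene, had the opposite order of the irradiated libraries, at 279.8, 3887 and 6126 CPM. Bst2, the virus-tethering protein tetherin, stood at 153, 1898 and 1550.0 CPM, 12.4-fold (9.06 to 17.4) and 10.1-fold (7.37 to 14.2) above control. Ifit3, an interferon-induced antiviral gene that shares reads with the near-identical Ifit3b, had 1, 374 and 93 UMIs, or 3.83, 314 and 154 CPM, and its ratio of 81.9 for photons has an interval from 14.6 to 3242. The transcription factor gene Irf7 had 34.5, 382 and 405 CPM. All these genes were low in control members and high in both irradiated groups. The exception on the list was Ifi27, at 203, 27.7 and 13.2 CPM, which was lower at 0.136 (0.0855 to 0.214) and 0.0651 (0.0267 to 0.138) of control, as it was in other cells (200.4, 35.7 and 24 CPM). Ifi27 (chr12:103434211-103440239, plus strand, GRCm38) lies beside Ifi27l2a (chr12:103442167-103443680, minus strand), which was higher.

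MHC class I presentation genes were higher as well, summing to 1422, 5521 and 3699.9 CPM, with 13 of 14 tested genes higher for photons and 11 of 14 for protons and none lower. B2m, which encodes the MHC class I light chain, reached 195, 1534 and 1058 CPM in members and 191, 1657 and 1233 in other cells, and Psmb8, an immunoproteasome subunit, at 34.5, 180.4 and 121 CPM in members. Photon members were the highest in these 2 genes and in the list. Chemokines and the interferon genes themselves, a separate list, summed to 333, 517 and 256 CPM. The sum was 1.55 times control for photons (1.24 to 1.96), although 3 of 5 tested genes were lower and 2 higher, with a median log2 ratio of -0.74, and 0.768 times for protons (0.587 to 1.01), with 2 of 3 lower and 0 higher. The list rested on few members: Ccl5, a T cell attractant, had 0, 236 and 29 UMIs, of which 85 and 21 came from 1 member of the photon and proton libraries. Against the control's floor of 3 UMIs over its members, Ccl5 was at least 17.2-fold higher for photons, or at least 11.1-fold without that member, and at least 4.17-fold for protons; without that member 8 proton UMIs remained, too few for a direction.

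Targets of p53, the factor that halts the cycle after DNA damage, showed no common direction as a list in members. They summed to 2396, 2279.7 and 1859 CPM, ratios of 0.952 (0.872 to 1.04) for photons and 0.776 for protons. Of the tested genes 2 were higher and 5 lower of 15 for photons, and 7 higher and 5 lower of 18 for protons, with medians of -0.01 and -0.02. In other cells the ratios were 1.22 and 1.07, with 9 of 19 and 8 of 20 genes higher and 0 and 4 lower. Cdkn1a, which encodes the cell cycle inhibitor p21, had levels of 142, 180.4 and 99.1 CPM in members, with ratios of 1.27 (0.894 to 1.86) and 0.699 (0.457 to 1.08). One control member held 14 of the 37 control UMIs of Cdkn1a, and without it the ratios were 1.90 and 1.02, so no direction can be read for protons. In other cells Cdkn1a stood at 159, 349.6 and 199.7 CPM. Mdm2, the p53 ubiquitin ligase, stood at 84.3, 83.9 and 57.8 CPM in members against 72.5, 133 and 157 CPM in other cells, with ratios in members of 0.995 (0.622 to 1.66) and 0.686 (0.391 to 1.23). The cyclin G gene Ccng1 stood at 126, 181 and 216 CPM in members against 161, 302 and 319 in other cells, and Trp53inp1, a stress-induced p53 cofactor, at 84.3, 74.7 and 140.5 against 179.5, 246 and 443. In both irradiated libraries each of these 4 genes was lower in the members than in the other cells, though the difference between the 2 kinds of cell was set by the rule and has no test.

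Genes of replication stress and repair summed to 1039, 1519 and 1692 CPM in members, ratios of 1.46 for photons and 1.63 for protons. For photons 10 of 18 tested genes were higher and none lower, and for protons 14 of 23 were higher and 2 lower, with medians of 0.67 and 0.92 beside -0.10 over all genes. In other cells the ratios were 0.962 and 1.04. Brca1, which acts in homologous recombination, had 2, 47 and 38 UMIs, or 7.67, 39.4 and 62.8 CPM, with ratios of 5.14 (1.35 to 43.7) and 8.19 (2.12 to 70.1). Brca2, which acts in the same repair pathway, stood at 7.67, 28.5 and 67.8 CPM, and the checkpoint activator gene Topbp1 at 95.8, 158 and 187 CPM. Rad18, a ubiquitin ligase for PCNA at stalled forks, stood at 23, 63.8 and 107 CPM, and Atad5, which unloads PCNA, at 26.8, 62.1 and 89.2 CPM. These 5 genes were lowest in control members and highest in proton members, with Brca1 and Brca2 at 2 control UMIs each. The order was not shared by the whole list. Clspn was highest in photon members, at 30.7, 84.7 and 39.7 CPM, and Ung lowest in proton members, at 53.7, 52.9 and 19.8 CPM. The lower share of control members with several replication genes moves with this list; its part in the difference was not tested.

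The replication lists stood higher in photon members than in control members, and the fork list also in proton members. Licensing genes summed to 847, 1349 and 983 CPM, 1.59 times control for photons (1.38 to 1.84) with 7 of 13 genes higher and 0 lower, and 1.16 times for protons (0.993 to 1.36) with 4 of 12 higher and 1 lower. Fork genes summed to 855, 1376 and 1322 CPM, 1.61 and 1.55 times control, with 9 of 17 and 8 of 15 higher and none lower. Both lists depend on which control cells are taken: with Pcna left out of the rule the licensing ratio was -0.066 on the log2 scale for photons and -0.61 for protons, from 10 control members, and among members with at least 5 S phase UMIs the fork ratio was -0.011 and -0.22, from 7. No difference in replication genes between irradiated and control members can therefore be read apart from the makeup of the control members.

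**Figure D5:**
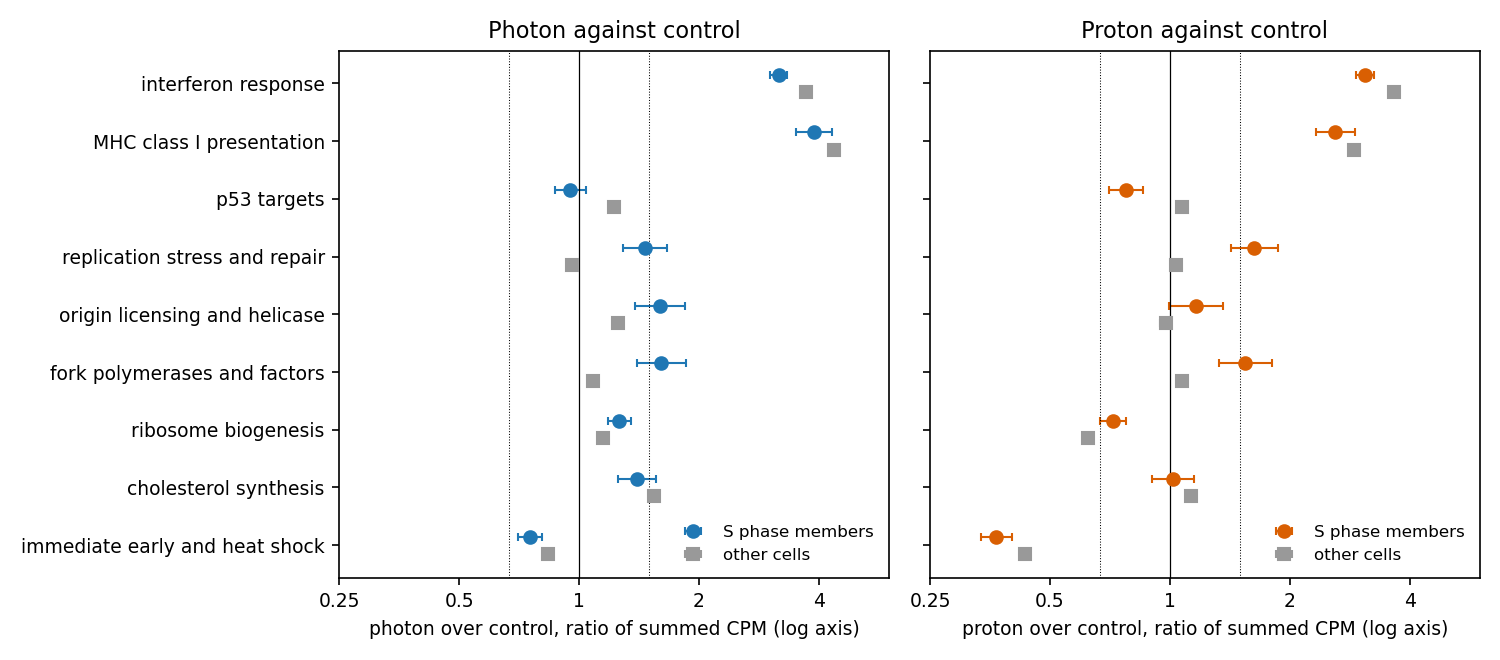
Ratio of summed CPM (log axis) to the control for 9 gene lists, in members (circles, exact 95% counting intervals) and other cells (squares), for photons on the left and protons on the right; dotted lines mark 1.5-fold. Interferon and MHC class I genes lie far above 1 in both kinds of cell, and immediate early genes lie at 0.754 and 0.366 in members; repair genes lie at 1.46 and 1.63 in members and at 0.962 and 1.04 in other cells.

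The list of immediate early and heat shock genes was lower in members after protons. It summed to 4040.2, 3046 and 1479 CPM, ratios of 0.754 for photons and 0.366 for protons, with 1 of 17 higher and 5 lower for photons and 13 of 15 lower for protons. Jun, a subunit of the AP-1 factor, stood at 652, 517 and 122 CPM, with ratios of 0.793 (0.668 to 0.946) and 0.188 (0.141 to 0.248). The small heat shock protein gene Hspb1 stood at 1311, 649 and 403 CPM. Proton members were lowest in both genes. Jun stood at 948, 734 and 187 CPM in other cells, where the list was at 0.433 of control for protons, so the difference was not limited to the members; the Malat1 level given above moves with it, and its part was not tested. Ribosome biogenesis genes summed to 4094, 5168 and 2946 CPM, and their nucleolar chaperone Npm1 stood at 1794, 2379 and 987 CPM.

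The 10 highest and 10 lowest ratios show how few counts the extremes rest on. For photons the highest were Ifit3, Trim30a, Phf11d, Fabp4, Usp18, Apol9b, Oasl2, Ccl5, H2-Q7 and Psca, from 81.9 down to at least 16.5. Psca was not a feature of the members: 224 of its 226 photon UMIs came from 1 cell, and without it 2 remained, beside 0 in the control, so no fold is given. Fabp4, a fatty acid carrier gene, had 112 of 134 proton UMIs in 1 member, and its proton ratio of 57.8 came to at least 3.15 without the top member of each library. For protons the highest were Fabp4, Ifit3, Trim30a, Ddx60, Ifi27l2a, Phf11d, Irgm1, Anln, Plcb1 and H2-Q7, from 57.8 to 16.2, all but Ifi27l2a and H2-Q7 from 1 control UMI. The lowest for photons were Cxcl3, Hp, Ifi27, Orm3, Itga2, Fxyd2, Camk2n1, Ptprd, Kif26b and Capn7, from 0.0766 to 0.219. Cxcl3, a neutrophil chemokine, had 13 of its 20 control UMIs and 6 of its 7 photon UMIs in 1 member each. Without the top member of each library its ratio was 0.0302 (0.00067 to 0.235) for photons. For protons it was 0.179 (0.0299 to 0.786), where all members gave 0.108. Hp, haptoglobin, had 21 of its 25 control UMIs in 1 member, and Itga2 had 9 of 14. Without the top members their photon ratios were 0.540 (0.156 to 2.36) and 0.383 (0.115 to 1.46). No direction can be read from these 2 ratios. The lowest for protons were Ifi27, Gadd45a, Ahnak2, Orm3, Itga2, Cxcl3, Cited2, Cldn3, Bag5 and Ccs, from 0.0651 to 0.135. Among these Cited2, a transcriptional coregulator, rested on the most counts, at 211, 117 and 24.8 CPM.

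Proton and photon members are compared here without the small control group. Of 5485 genes, 1250 (22.8%) were higher in proton members and 1111 (20.3%) lower. By gene length the median log2 ratio of proton to photon was -0.32 for 1203 genes under 10 kb, -0.02 for 3287 genes of 10 to 100 kb and 0.64 for 995 genes of 100 kb or more, 54.1% of which were higher and 1.31% lower. Other cells had the same order, at -0.37, 0.05 and 0.65. Ribosome biogenesis genes were lower in proton members, at 0.570 of the photon sum with 11 of 17 lower and 1 higher, as were licensing genes at 0.729 with 7 of 13 lower and none higher, and replication chromatin genes at 0.658 with 5 of 15 lower and 1 higher. Replication-dependent histones summed 2.09-fold higher (1.64 to 2.66), with 1 of 55 listed genes high enough to be tested, while the same ratio was 0.794 in G2/M cells and 0.972 in other cells. Members that carried a histone gene of the rule had 158 and 418 CPM of this list in the photon and proton libraries, and members without one had 87.4 and 109.5 CPM, so the difference lay mostly in cells that the rule's histone genes picked. Of the interferon list 11 of 39 were lower and 2 higher, with a median of -0.26 beside 0.03 over all genes. Gene length moves with the ratio in this comparison, as in both comparisons with the control. Its part in the differences of these lists was not tested.

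Among single genes of replication the same contrast gave differences in both directions. Pola1, the catalytic subunit of DNA polymerase alpha, stood at 157, 160.3 and 317 CPM, and Esco2, the S phase cohesin acetyltransferase, at 7.67, 11.7 and 49.6 CPM, 4.22-fold higher in proton than photon members (2.17 to 8.61). Slbp, which binds the stem-loop of histone mRNA, stood at 76.7, 128 and 33.0 CPM, the histone variant gene H2afz at 1081, 1468 and 788 CPM and Dut, which removes dUTP, at 172, 319.7 and 167 CPM. Pola1 and Esco2 were thus highest in proton members, and Slbp, H2afz and Dut highest in photon members. The lowest ratios were those of Psca, Ccs, Rraga, Ddx39, Rfxap, Cited2, Lysmd2, Dnajc9, Oat and Tmed9, from 0.00871 to 0.232. Dnajc9, a histone chaperone, stood at 69.0, 102 and 23.1 CPM. The highest were Rbm38, Prl2c5, Stam, Fam102a, Fut9, Map2, Esco2, Fchsd2, Slc25a36 and Slc24a3, from 72.9 to 3.84. Rbm38 and Prl2c5 had 36 of 37 and 33 of 35 proton UMIs in 1 member, and Psca nearly all its photon UMIs in 1, so these 3 describe single cells.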

How the data were processed

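The UMI counts per gene and cell were deposited by the authors as 1 filtered matrix per library, with 32285 genes. They used Cell Ranger 7.0.1 and mm10, per the submitters' processing notes; the file headers name version 7.0.0, and neither the annotation release nor the use of intronic reads is stated there. Every deposited barcode held at least 500 UMIs. No doublet caller was run and no doublet was removed; leaving out the top 5% of cells by UMIs was an alternative. Counts were summed over the members of each library and divided to CPM here, in Python 3.11.15 with numpy 2.4.6, scipy 1.17.1 and pandas 2.3.3. With 1 library per condition the planned comparisons were of size only: ratios of CPM with exact conditional binomial intervals, called past 1.5-fold at a mean of at least 25 CPM. A count of 0 was set to 3 UMIs per group for a ratio. The calculations were tested on simulated data.

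Genes were named by rule: the 10 highest and 10 lowest ratios per comparison, leaving out unnamed gene models, mitochondrial genes and the rule's own genes, and from each list those with the highest level or largest ratio. The other alternatives were other thresholds of the rule and filters, thinning to 2000 UMIs, a depth window, median-ratio scaling and leaving out Pcna. Leaving out the member with the most UMIs of a gene, and a minimum of 100 CPM, were chosen after seeing the data. The members and the 18 pathway and 16 marker lists (575 genes, 572 in the table) were chosen with earlier results of these data known. Genes called unlike other lists or singled out for a single member's counts were chosen after their values were seen. Gene lengths come from GENCODE M21, which matched 32235 of 32285 IDs. Ifit3, H2-Q7, Trim30a, Apol9b and the histone genes have near-identical copies, so their counts are uncertain. Some genes that met the naming rule are not reported here.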

Additional observations from a re-analysis of the deposited data

How the results depend on the processing

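With 1 library per condition, few control members and no replicate numbers, the settings below change values without any spread between samples to set them against. No paired analysis was possible because each condition has 1 library. The cause of each change was not tested, except that stricter rules leave fewer of the 46 control members: 7 with at least 5 S phase UMIs, 35 with no G2/M UMI, 22 after thinning and 10 without Pcna; the looser limit of 2 S phase UMIs takes in 255.

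Shares of members (control, photon, proton) were 1.93%, 4.51% and 2.97% with at least 2 S phase UMIs, 0.0530%, 0.572% and 0.308% with at least 5, 0.229%, 2.15% and 1.49% after thinning, and 0.0756%, 1.08% and 0.588% without Pcna. With at least 1000 genes they were 2.11% for photon and 1.52% for proton, with no G2/M UMI 0.917% and 0.509%, and without the deepest 5% of cells 0.239% for control.

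Counts of genes are given as higher then lower. For photon against control they were 1179 and 1977 at 10 CPM, 311 and 580 at 50 CPM, 147 and 225 at 100 CPM, 237 and 397 past 2-fold, 1012 and 1948 with at least 5 S phase UMIs, 1018 and 1976 after thinning, and 1020 and 2025 without Pcna. For proton against control they were 1818 and 2155 at 10 CPM, 517 and 790 at 50 CPM, 235 and 395 at 100 CPM, 453 and 612 past 2-fold, and 2215 lower without Pcna. For proton against photon they were 2035 higher at 10 CPM, 676 and 719 at 50 CPM, 287 and 397 at 100 CPM, and 439 and 397 past 2-fold. Members against other cells gave 325 and 549 at 10 CPM, 72 and 49 past 2-fold, 160 lower at 4000 to 12000 UMIs, and 307 higher after thinning. Members against G2/M cells gave 23 and 134 at 10 CPM, 2 and 47 past 2-fold, and 47 higher after thinning. Histone-positive against histone-negative members gave 117 and 34 at 10 CPM, 2 and 0 past 2-fold, and 31 and 20 at 4000 to 12000 UMIs.

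These log2 ratios turned to the other side of 0. Photon against control: fork genes -0.011 with at least 5 S phase UMIs, replication-dependent histones -0.71 with no G2/M UMI, Ptprd 0.76 after thinning (1 control UMI), licensing genes -0.066 and Mdm2 0.68 without Pcna. Proton against control: with at least 5 S phase UMIs licensing -0.60, fork -0.22, and as lower bounds over 0 control UMIs chemokines 2.55 and Cdkn1a 0.59; with no G2/M UMI chemokines 0.70; after thinning, with 2 control UMIs each, chemokines 2.07, Cdkn1a 0.97 and Mdm2 0.75; without Pcna licensing -0.61 and, as a lower bound over 0 control UMIs, chemokines 2.17. Proton against photon: Brca1 -0.017 with at least 5 S phase UMIs, and after thinning Prl2c5 -1.33, Fchsd2 -0.18 and Slc25a36 -0.13. Members against G2/M cells after thinning: the rule's S phase genes 0.69 in control and 0.79 in photon, replication-dependent histones 0.35 in proton and repair genes 0.17 in control. Without the top member of each library, Prl2c5 was -1.19 for proton against photon (2 and 9 UMIs). No value is given where 1 group was left empty and the floor of 3 UMIs left the direction unknown, or where both groups were at or under that floor: 9 with at least 5 S phase UMIs, 8 without Pcna, 3 after thinning and 3 without the top member, among them Psca, Rbm38, Fabp4, Plcb1 and Brca1. Of the other list values, 544 kept direction and side of 1.5-fold, 43 newly passed 1.5-fold and 44 no longer did in the same direction, and 54 changed sign within 1.5-fold; for gene values these were 777, 15, 25 and 22.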
